A study of Drosophila melanogaster with 12 samples.

Results

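Ovaries of sterile su(Hw)2/su(Hw)v females (2/v) were compared with ovaries of wild type Canton S females, which carry the wild type su(Hw) gene. The comparison uses the 3 arrays titled for each of these groups, 6 of the 12 arrays in the study, and every gene that a single symbol identifies in the probe annotation. There were 11982 such genes, and 9109 of them passed the filter on low signals and were tested. The other groups, used here only to show where 2/v ovaries differ from them, were fertile su(Hw)f/su(Hw)v females (f/v, 3 arrays) and sterile su(Hw)Pb/su(Hw)2 females (Pb/2, 3 arrays). All 3 mutant groups are heteroallelic, 2/v shares the v allele with f/v and the 2 allele with Pb/2, and the labels give no genetic background for the mutants. Each array holds RNA pooled from about 150 ovary pairs of virgin females aged 4 to 6 hours. According to the study's design text, such ovaries hold egg chambers of stages 1 to 8 only, before the stage 9 at which chambers lacking Su(Hw) die. The tissue label and the titles say ovary, whereas the source names and descriptions say embryos.

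Su(Hw) is a zinc finger DNA-binding protein that was first known as an insulator protein. With the partners Mod(mdg4) and CP190 it acts at the gypsy retrotransposon insulator, and at many other sites in the genome it acts as a repressor, including of neural genes in the female germline. Females without it are sterile because egg chambers die in mid-oogenesis. An ovary holds rows of germline cysts, which become wrapped in somatic follicle cells that later secrete the eggshell.

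The values are normalized array signals, and background here means a signal under 62.0, which 95% of the deposited readings from 27 control probe sets for bacterial genes did not exceed. These control readings were not normalized, so signals near this limit are compared across 2 scales. The deposited array medians ran from 116 to 132 in wild type and from 96.5 to 102 in 2/v. How this moves signals across the limit was not tested. A difference is a log2 ratio, 2/v minus wild type, with its standard error, and a gene is called where its adjusted p is under 0.05. Arrays of one genotype correlated at 0.992 to 0.993 within wild type and at 0.988 to 0.990 within 2/v, and wild type with 2/v arrays at 0.943 to 0.951. In 2/v, 2201 genes were higher and 2039 lower than in wild type, 24.2% and 22.4% of the genes tested. At 2-fold or more, 476 genes were higher (5.23%) and 502 were lower (5.51%). This balance belongs to the scaling: with arrays scaled to the 9 hybridization control probe sets, whose signal in 2/v was 1.40 times that in wild type, the median gene shifted by -0.55, so that rises smaller than about this size turned negative, and 410 genes were higher against 5414 lower. With only the median of each array subtracted, the median gene shifted by 0.19, with 3399 higher and 1348 lower. The shares of higher genes among all calls were 51.9%, 7.04% and 71.6% under these 3 scalings, and 42.2% in the values as deposited, where 1929 were higher and 2640 lower. Counts within gene lists moved with the scaling as well: of the 42 lists described below, the higher or the lower count changed by more than 1.5 times in 38 with the hybridization control scaling, in 25 with the array median subtracted and in 20 as deposited. The counts of called members in each list stand beside the 24.2% higher and 22.4% lower among all tested genes.

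**Figure D1:**
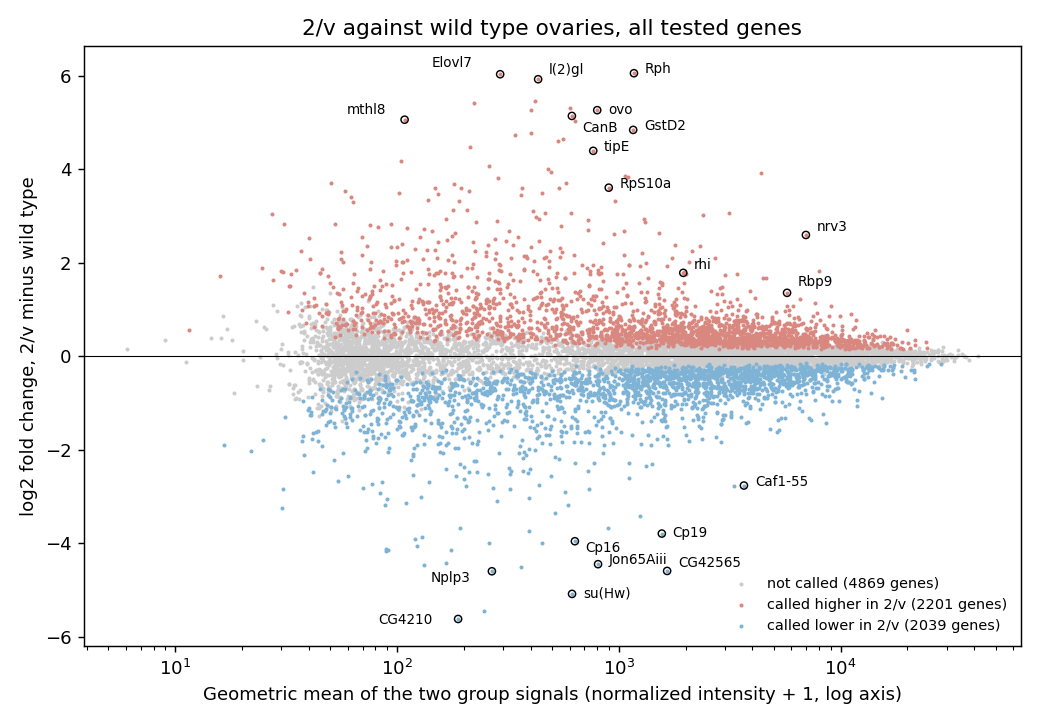
Each point is 1 of the 9109 tested genes, with the geometric mean of the wild type and 2/v mean signals on a log axis and the log2 difference, 2/v minus wild type, on the vertical axis. Called genes are red (2201 higher) or blue (2039 lower), genes that were not called are grey, and 20 genes described in the text are circled.

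Germline and follicle cell markers were present in both groups. All 7 germline markers on the array (vas, osk, ovo, otu, bam, orb and grk) and all 6 somatic ones (tj, zfh1, eya, ct, cas and mirr) lay above background in every wild type and 2/v array. The signals of osk, which localizes the germ plasm, ran from 20402 to 27804 in wild type and from 24057 to 26363 in 2/v, and those of grk, the oocyte's signal to the follicle cells, from 2499 to 2946 and from 2420 to 3017. The groups overlapped for both genes, and neither these nor orb were called. In contrast, vas (-0.48), otu (-0.57) and bam (-0.55) were called lower in 2/v, and ovo was called higher (5.26). Of the somatic markers, zfh1, eya, ct, cas and mirr were called lower and tj higher (0.39, adjusted p = 0.048). Of 5 neuronal markers, 1 lay above background in every wild type array and 4 in every 2/v array. They did not move together: nSyb (1.28) and ChAT (2.29) were called higher, elav lower (-1.10), and brp (0.39) and para (-0.44) were not called. Of 2 glial markers, repo and moody, 2 lay above background in every wild type array and 1 in every 2/v array. In whole ovaries, a lower signal from fewer cells of a type and one from less RNA per cell cannot be told apart.

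The su(Hw) gene itself, the gene altered in the mutants, gave signals of 3862, 3561 and 3999 in wild type and of 85.1, 129 and 81.4 in 2/v. Every 2/v array was thus far below every wild type array but still above background. The difference was -5.08 ± 0.25 (adjusted p = 1.5e-07). In f/v the mean was 2737, against which 2/v was also lower (-4.61, adjusted p = 7.3e-07), and in Pb/2 it was 150, a difference that did not pass the test (-0.48, adjusted p = 0.20).

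Of 21 tested insulator and boundary proteins, 4 were called higher and 7 lower, su(Hw) among them, and the median difference was -0.08, beside 0.01 for all tested genes. The sign of that median turned with the array median subtracted (0.08). Cp190, which joins Su(Hw) at insulators, read 6037, 5785 and 5138 in wild type and 2727, 3844 and 3805 in 2/v, without overlap, and fell by 0.72 ± 0.13 on the log2 scale. Its partner mod(mdg4) was called higher by 0.29 (adjusted p = 0.010) in the brightest of its probe sets, a difference that turned negative with the hybridization control scaling (-0.17). Cap-D2, a condensin subunit, fell by 0.92, and dwg, the Zw5 boundary protein, rose from 439 to 668 in wild type to 1040 to 1330 in 2/v (1.03 ± 0.18), a call lost with the hybridization control scaling (0.30, adjusted p = 0.19). The fly CTCF gene was not called in its brightest probe set (-0.14, adjusted p = 0.21, and 0.02 with the array median subtracted).

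Other probe sets of CTCF and mod(mdg4) differed from the brightest ones, in a fit of all 12618 probe sets kept by the filter. In a second probe set of CTCF, wild type read 1413, 1478 and 1595 and 2/v read 60.5, 40.7 and 71.8 (-4.38 ± 0.30, adjusted p = 3.0e-06), with means of 46.0 in f/v and 35.3 in Pb/2. Its remaining probe set read 1486, 1361 and 1457 against 147, 124 and 132 (-3.27 ± 0.14, adjusted p = 7.9e-08), with means of 147 and 94.7 in the other mutants. So 2 of the 3 CTCF probe sets were low in every mutant array, and the brightest one was not. The mod(mdg4) locus makes many proteins from alternative last exons, and of its 22 probe sets 10 were called higher and 2 lower. The probe set with the largest fall read 563, 552 and 557 in wild type and 96.1, 94.1 and 87.8 in 2/v (-2.40), with means of 382 in f/v and 77.6 in Pb/2. The one with the largest rise read 1363, 1221 and 1270 against 2763, 3054 and 3124 (1.20).

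Such disagreement was uncommon but touched genes with large changes. Of 685 genes with several probe sets in that fit, 23 had differences that lay 4-fold or more apart and 27 had probe sets called in opposite directions. The genes given here were chosen after their values were seen, from those farthest apart. For f, the forked gene of bristle actin bundles, a probe set read 77.6, 113 and 149 in wild type and 2347, 1940 and 1768 in 2/v (4.00 ± 0.26), with means of 1288 in f/v and 2920 in Pb/2, while another close to background gave -0.08. For Mob2, of a family of kinase activators, one probe set read 190, 220 and 195 against 1953, 1870 and 1621 (3.07 ± 0.09), with 153 in f/v and 1780 in Pb/2, and another gave -0.01 (adjusted p = 0.96). The group order of f was thus a rise in all 3 mutants, and that of Mob2 a rise in the 2 sterile ones. For CG4849, one probe set read 454, 506 and 399 in wild type and 3643, 3130 and 3798 in 2/v (2.92 ± 0.18), against means of 574 in f/v and 481 in Pb/2, so that the 2/v arrays alone were high. Its other probe set gave -0.10 (adjusted p = 0.57). TBPH, the fly relative of the RNA-binding protein TDP-43, rose by 2.38 ± 0.11 in one probe set, from 150, 157 and 166 to 999, 812 and 863, and gave -0.03 in another.

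The 10 nearest tested genes on each side of su(Hw) in the gene order were examined as its neighbourhood. Among these 20 genes, 8 were called lower and 1 higher, beside 22.4% and 24.2% of all genes. With the array median subtracted, the calls of Set8 (adjusted p = 0.085) and twf (adjusted p = 0.18) were lost. The neighbour with the largest difference was NK7.1, a homeobox gene, which read 588, 621 and 534 in wild type and 267, 236 and 296 in 2/v (-1.08 ± 0.12). The gene next but one on the other side, trx, which encodes the Trithorax histone methyltransferase, fell by 0.83 ± 0.17 from 2520, 2586 and 2545 to 1095, 1584 and 1683. The histone methyltransferase gene Set8, directly beside su(Hw), fell by 0.51 ± 0.10 and ATPsynE, a subunit of the mitochondrial ATP synthase, by 0.23 ± 0.05, although ATPsynE was higher by 0.25 with the array median subtracted and was not called as deposited. The other lower neighbours were 140up (-0.83), MetRS-m (-0.61), CG31326 (-0.57) and twf (-0.46), the last an actin-binding twinfilin. CG9616 (0.48, adjusted p = 0.049) was the gene called higher, a call that was lost as deposited, that turned negative with the hybridization control scaling and that was lost when any 1 of the 6 arrays was left out (adjusted p of 0.060 to 0.16), and that of twf was lost without 2/v replicate 2 (adjusted p = 0.053). The genes lying between su(Hw) and these, such as IFT54 (0.19) and Afti (-0.22), did not pass the test, and the 6 farthest genes on one side were all uncalled.

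**Figure D2:**
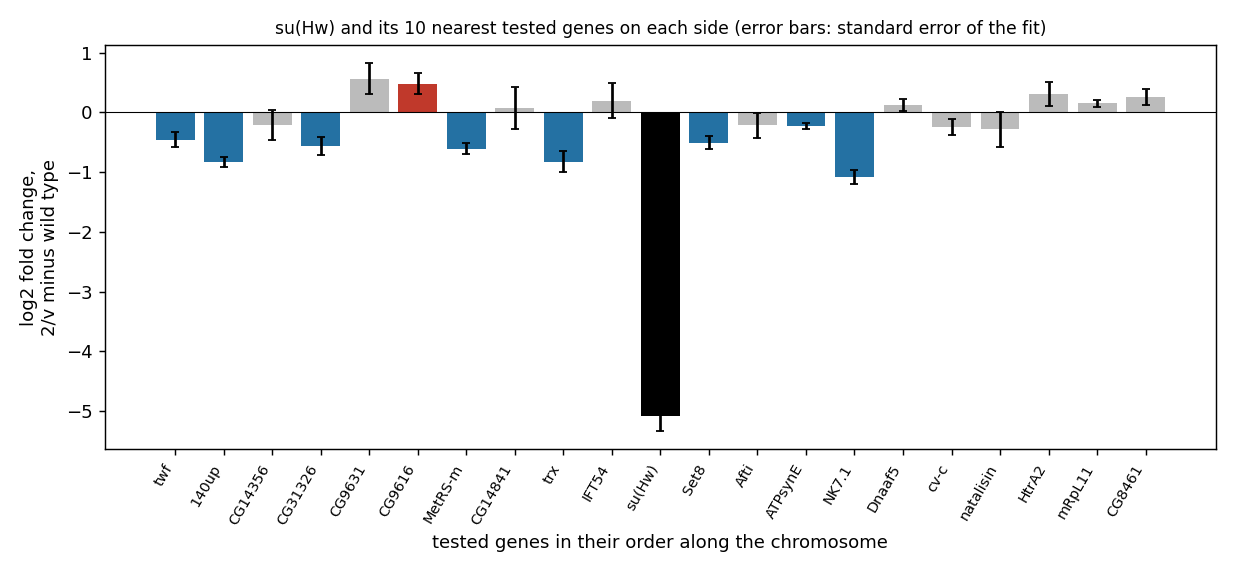
Bars give the log2 difference, 2/v minus wild type, for su(Hw) and the 10 nearest tested genes on each side in chromosomal order, with the standard error of the fit. The bar of su(Hw) reaches -5.08, the 8 blue bars are called lower, the red bar is called higher and the grey bars were not called.

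Rbp9, of the Elav family of RNA-binding proteins, which acts in neurons and in differentiating germline cysts, read 3174, 3666 and 3909 in wild type and 9568, 9530 and 8411 in 2/v. The 2/v arrays were all above the wild type arrays, and the difference was 1.35 ± 0.11 (adjusted p = 6.8e-06). Against f/v, whose mean was 2665, 2/v was higher by 1.78, whereas against Pb/2 (mean 8258) the difference of 0.15 did not pass the test (adjusted p = 0.37). A second Rbp9 probe set, close to background with means of 61.5 and 66.2, gave 0.03. The pan-neuronal elav, the other tested member of this family, moved the other way, from 906, 892 and 682 to 399, 374 and 349 (-1.10 ± 0.16).

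The 15 largest rises were chosen among genes whose 2/v arrays all lay above wild type, as did those of 29.7% of the genes tested (27.3% lay below, 57% in all), and direct tests divided them by whether the other mutants differed from 2/v. Of these 15 genes, 11 were also higher in 2/v than in f/v (13.8% of all genes) and 7 were higher than in Pb/2 (11.1%). The genes were chosen for high signals in the same 2/v arrays, which favours such calls, so the excess over all genes is not a separate result. Rph, the Rab effector rabphilin of synaptic vesicles, read 149, 144 and 114 in wild type and 10003, 10205 and 9802 in 2/v (6.05 ± 0.09). Its mean in f/v was 379 (2/v higher by 4.67, adjusted p = 8.7e-10) and in Pb/2 8079 (by 0.31, adjusted p = 0.037). A similar order of group means, low in wild type and f/v and high in both sterile genotypes, was seen for CG1695 (56.9, 99.6, 2771 in 2/v and 3019 in Pb/2) and CG15760 (26.4, 124, 1805 and 1355). CG15760 lay below background in every wild type array and was at least 28.9-fold higher in 2/v.

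The 4 large rises in which 2/v was not called against f/v or Pb/2 were Elovl7, l(2)gl, ovo and NFAT. Elovl7, of the fatty acid elongase family, was below background in all wild type arrays (18.6, 39.9 and 27.9) and read 2803, 3047 and 2724 in 2/v, at least 46.1-fold higher, with a mean of 2667 in f/v and 2738 in Pb/2. For l(2)gl, a cell polarity gene and tumour suppressor, the wild type arrays read 42.6, 34.6 and 67.2 and the 2/v arrays 3399, 4372 and 3661, with means of 3459 in f/v and 4992 in Pb/2. NFAT, the fly member of the calcineurin-regulated transcription factors, read 82.9, 136 and 92.9 against 3688, 3824 and 3926, with means of 3956 and 3959 in f/v and Pb/2. These 3 genes were thus high in all 3 mutant groups, and the difference between 2/v and f/v was 0.10 for Elovl7, 0.14 for l(2)gl and -0.04 for NFAT, with adjusted p from 0.64 to 0.86. The transcription factor gene ovo, needed in the female germline, had the same order, from 98.9, 127 and 138 in wild type to 5497, 5079 and 5074 in 2/v.

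CanB, the regulatory subunit of the calcineurin phosphatase, read 114, 80.5 and 93.2 in wild type and 4058, 3740 and 3888 in 2/v (5.14 ± 0.13), and was higher in 2/v than in f/v by 0.64 (adjusted p = 0.0046). Among 12 tested calcineurin and NFAT genes, 4 were higher and 4 lower, with a median of -0.18 that became positive with the array median subtracted (0.13). The catalytic subunit CanA-14F rose by 2.48 ± 0.14 in the probe set of highest mean signal, whereas a second, dimmer probe set fell by 0.74. SERCA, the calcium pump of the endoplasmic reticulum, fell by 0.99 ± 0.11, from 4899, 5694 and 5515 to 2395, 2830 and 2847, and was lower than in f/v (-0.87) and Pb/2 (-0.72) as well.

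Of the 15 largest rises, chosen by these same 2/v arrays, 6 were called higher in 2/v than in each of the 3 other groups (1.68% of all genes). By the smallest of the 3 differences the first of these was mthl8, a receptor of the Methuselah-like family, which lay below background in wild type (10.1, 10.8 and 14.7) and read 871, 950 and 909 in 2/v. That is at least 14.7-fold higher, and 2/v also exceeded f/v (mean 384) by 1.21 and Pb/2 (mean 300) by 1.55. In a second, dimmer mthl8 probe set the rise was 2.67 and the f/v mean of 413 lay above the 2/v mean of 297. GstD2, a delta class glutathione S-transferase, read 260, 210 and 162 in wild type and 6494, 6149 and 6462 in 2/v, and it exceeded f/v (mean 251) by 4.59 and Pb/2 (mean 2939) by 1.11. Hesr, a transcription factor related to the Hairy/E(spl) family, rose from 106, 102 and 105 to 2963, 2823 and 3228, against means of 855 in f/v and 1715 in Pb/2. The 2/v arrays lay above those of every other group for all 3 genes. CG4570, CG4650 and CG13928 were the remaining 3, with adjusted p of 0.026, 0.0043 and 0.035 for the test against each group.

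**Figure D3:**
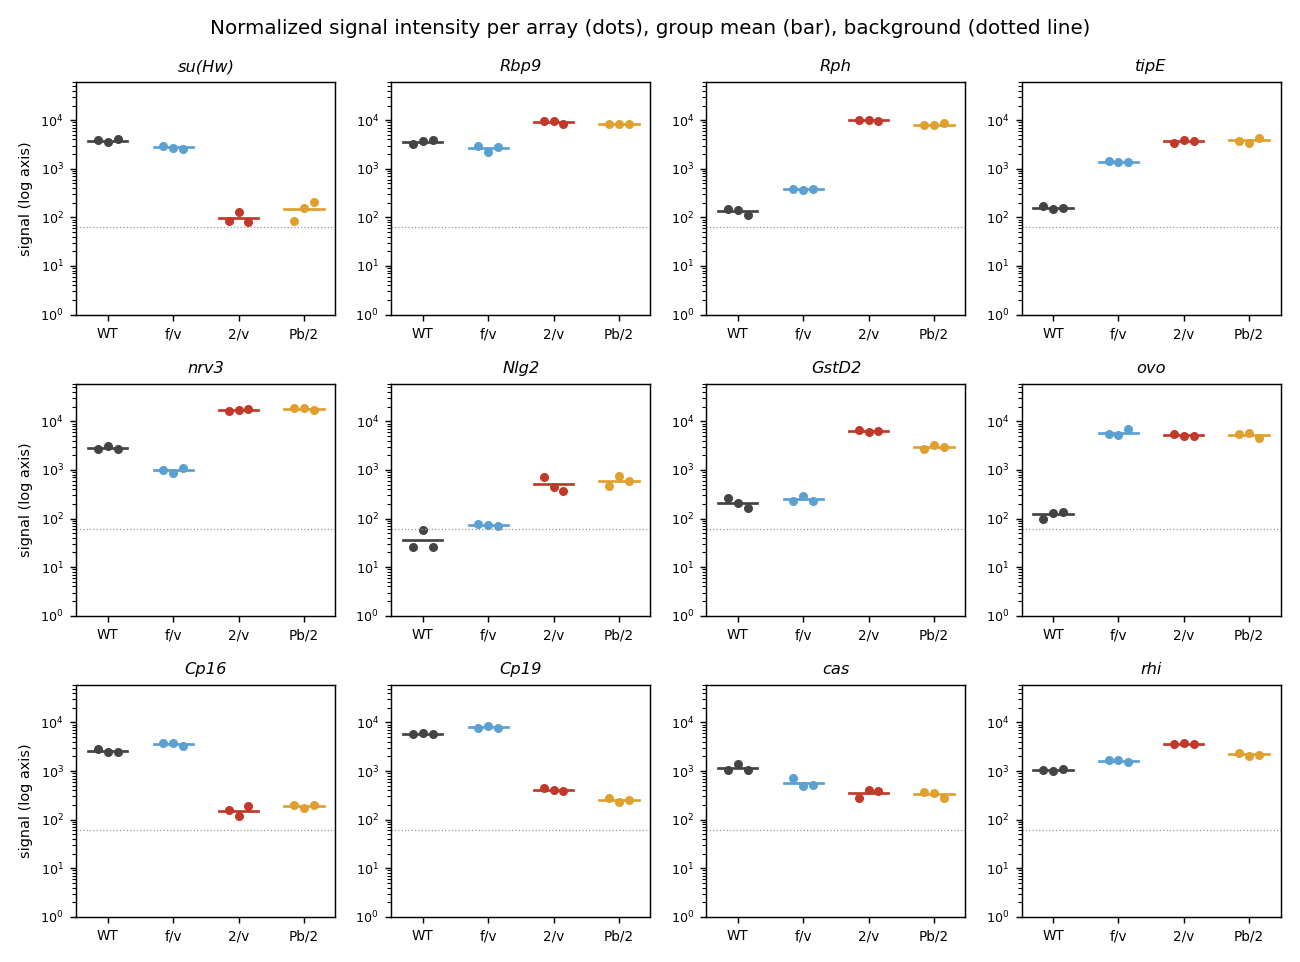
Normalized signals of 12 genes on a log axis, with 1 dot for each array, a bar at each group mean and a dotted line at the background of 62.0. The order of the groups is wild type, f/v, 2/v and Pb/2, and su(Hw) is low only in 2/v and Pb/2, Rph is high in these, and ovo is high in all 3 mutant groups.

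The 4 lists of neural genes held strong rises beside falls. Of 20 tested synaptic vesicle and release genes, 4 were higher and 7 lower, with a median of 0.14, which was negative as deposited (-0.09) and with the hybridization control scaling (-0.55). Of 29 genes for neuronal adhesion and cytoskeleton, 4 were higher and 11 lower (median -0.20), and of 24 glial and septate junction genes 3 were higher and 11 lower (median -0.24). Among 46 ion channels and transmitter receptors, 13 were higher and 9 lower (median 0.38, and -0.33 with the hybridization control scaling). The share called was 55.0%, 51.7%, 58.3% and 47.8% in these lists, beside 46.5% of all tested genes. The shares called higher were 20.0%, 13.8%, 12.5% and 28.3%, beside 24.2% of all genes. Those called lower were 35.0%, 37.9%, 45.8% and 19.6%, beside 22.4%. With the array median subtracted the higher and lower counts were 5 and 5, 5 and 9, 8 and 7, and 14 and 9. The median of the glial and septate junction list was then -0.07.

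tipE, an auxiliary subunit of the voltage-gated sodium channel, read 170, 152 and 156 in wild type and 3420, 3934 and 3645 in 2/v (4.39 ± 0.09). It was higher than in f/v (mean 1408) by 1.37 but was not called against Pb/2 (-0.06, adjusted p = 0.69). The sodium channel gene NaCP60E rose by 2.05 ± 0.23 from 67.1 to 93.4 in wild type to 271 to 493 in 2/v, and sei, a potassium channel of the ERG type, from 2515 to 2614 to 7949 to 8616. The channel para, which tipE assists, was not called (-0.44, adjusted p = 0.57, and 0.06 without wild type replicate 3). nAChRalpha2, a nicotinic acetylcholine receptor subunit, was below background in every wild type array (29.3 at the most) and read 404, 461 and 403 in 2/v, at least 6.81-fold higher.

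The enzyme that makes acetylcholine, ChAT, read 40.9, 75.7 and 30.1 in wild type and 278, 353 and 244 in 2/v (2.29 ± 0.37). Both nAChRalpha2 and ChAT were higher in 2/v than in each other group, with means in f/v and Pb/2 that did not exceed 54.7 for the receptor and 57.7 for the enzyme. The group means outside 2/v were therefore all below background for these 2 cholinergic genes. Other receptor subunits moved down, among them nAChRbeta3 (-1.75), the muscle glutamate receptor subunit GluRIID (-2.11 ± 0.18) and the calcium channel Ca-alpha1D (-1.71). The synaptic SNARE protein nSyb was below background in every wild type array, and its call of at least 1.86-fold in 2/v was lost with the hybridization control scaling.

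Cell surface genes gave the same mixture. nrv3, a neuronal beta subunit of the sodium pump, read 2742, 3114 and 2650 in wild type and 16456, 17053 and 17914 in 2/v (2.59 ± 0.10). In f/v its mean was 981, so that 2/v exceeded f/v by 4.11, and in Pb/2 it was 18077. Nlg2, a neuroligin of postsynaptic membranes, was below background in wild type (25.9, 57.4 and 25.3) and at least 7.92-fold higher in 2/v (703, 450 and 375), while a second, dimmer probe set gave 0.60 (adjusted p = 0.20). klg, an immunoglobulin superfamily adhesion protein, was likewise below background in wild type and at least 4.58-fold higher in 2/v, while dpr6, of another immunoglobulin family, rose by 1.42 ± 0.14. EndoA, the endophilin of vesicle endocytosis, fell by 1.22 ± 0.15, and the guidance receptor robo1 fell by 1.33, from 2289 to 2830 in wild type to 865 to 1092 in 2/v. The glial glutamine synthetase Gs2 fell by 1.68 ± 0.17, and cora, of septate junctions, by 1.27 ± 0.06. The glial transcription factor gene repo read 67.8 to 83.2 in wild type and 28.7 to 49.5, below background, in 2/v, at least 1.20-fold lower (adjusted p = 0.017), a call lost without 2/v replicate 1 or wild type replicate 3 (adjusted p = 0.067 and 0.057) and with trend and robust settings (adjusted p = 0.056).

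2/v ovaries also stood apart from all 3 other groups together. Tested against each of them, 153 genes were higher in 2/v (1.68% of those tested) and 91 were lower (0.999%). These counts depended on single libraries: without 2/v replicate 1 they were 47 and 31, without replicate 2 78 and 51, and without replicate 3 48 and 30. Leaving out wild type replicate 2 gave 93 and 46, and leaving out replicate 3 lowered the second count to 49. The largest of the 10 highest, by the smallest of the 3 differences, was Alp10, an alkaline phosphatase, at 143, 115 and 140 in wild type and 1349, 1086 and 1344 in 2/v, with means of 39.9 in f/v and 51.9 in Pb/2.

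RpS10a encodes one of 2 fly copies of ribosomal protein S10 and read 297, 211 and 247 in wild type and 3261, 3182 and 3187 in 2/v. The f/v mean was 488 and the Pb/2 mean 243, so that 2/v exceeded them by 2.69 and 3.64 (adjusted p against each group = 1.1e-05). No other ribosomal protein came near this: the next largest called rises among 39 tested cytoplasmic ribosomal proteins were RpS5b (0.35, a call lost with the hybridization control scaling), RpLP0-like (0.23) and RpL24-like (0.16), of which the last 2 turned negative with the hybridization control scaling and lost their calls without single arrays of both groups (adjusted p of 0.056 to 0.13). In this list 4 genes were called higher and 1 lower, but 34 and 0 in the values as deposited, 35 and 0 with the array median subtracted, and 1 and 4 with the hybridization control scaling. obst-H, of a chitin-binding family, was below background in wild type (5.77 to 8.88) and at least 4.70-fold higher in 2/v, which read 276 to 311. The other genes of the 10 were CG34283, CG5111, CG8757, CG3502 and dpr7, with 2/v means between 137 and 557, and nAChRalpha2 and ChAT described above. The calls against each group of CG5111 (without 2/v replicate 1 or 3), ChAT (without any 1 of the 2/v arrays) and dpr7 (without any 1 of the 6 arrays) were lost, with adjusted p of 0.051 to 0.090. With the hybridization control scaling those of ChAT (adjusted p = 0.050) and dpr7 (0.13) were lost as well.

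Among the 10 lowest, CG4115 had the largest difference, with 3311, 3558 and 2947 in wild type and 277, 214 and 238 in 2/v (-3.67 ± 0.15), means of 1408 and 573 in f/v and Pb/2, and no overlap with any of them. GstE14, a glutathione S-transferase needed for ecdysteroid synthesis, fell by 1.77 ± 0.09 from 4450, 4380 and 4282 to 1344, 1111 and 1364, and was lower than in f/v by 0.84 and than in Pb/2 by 0.91 on the log2 scale. Cad74A, a cadherin of follicle cells, read 356, 321 and 336 in wild type and 64.9, 118 and 71.0 in 2/v. InR, the insulin receptor, read 234, 354 and 253 against 134, 92.5 and 108 (-1.21 ± 0.20), with means of 230 and 253 in f/v and Pb/2. For these 4 genes, too, all 2/v arrays lay below all wild type arrays, as did those of 27.3% of the genes tested. The 4 genes were chosen for low signals in the same 2/v arrays, which favours this.

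Dhc64C, the heavy chain of cytoplasmic dynein, fell by 1.10 ± 0.16 from 3049, 3211 and 3069 to 1078, 1790 and 1551, while a second and dimmer probe set gave 0.53 (adjusted p = 0.14), and the mean of both was not called (-0.28, adjusted p = 0.26). The others were CG34217, the nucleoside transporter CNT2, the Jonah protease Jon99Fi, CG31661 and the ubiquitin protease puf. Jon99Fi was below background in every 2/v array, at least 3.89-fold lower than in wild type. The calls against each group of CG31661, CNT2, Cad74A, InR and puf were lost without 2/v replicate 1 and for some of them without other arrays, and that of Dhc64C without 2/v replicate 3, with adjusted p of 0.051 to 0.17. With the hybridization control scaling those of InR, CNT2 and Dhc64C were lost (adjusted p of 0.10 to 0.13), as were those of InR and CG31661 with the array median subtracted (0.058 and 0.073).

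**Figure D4:**
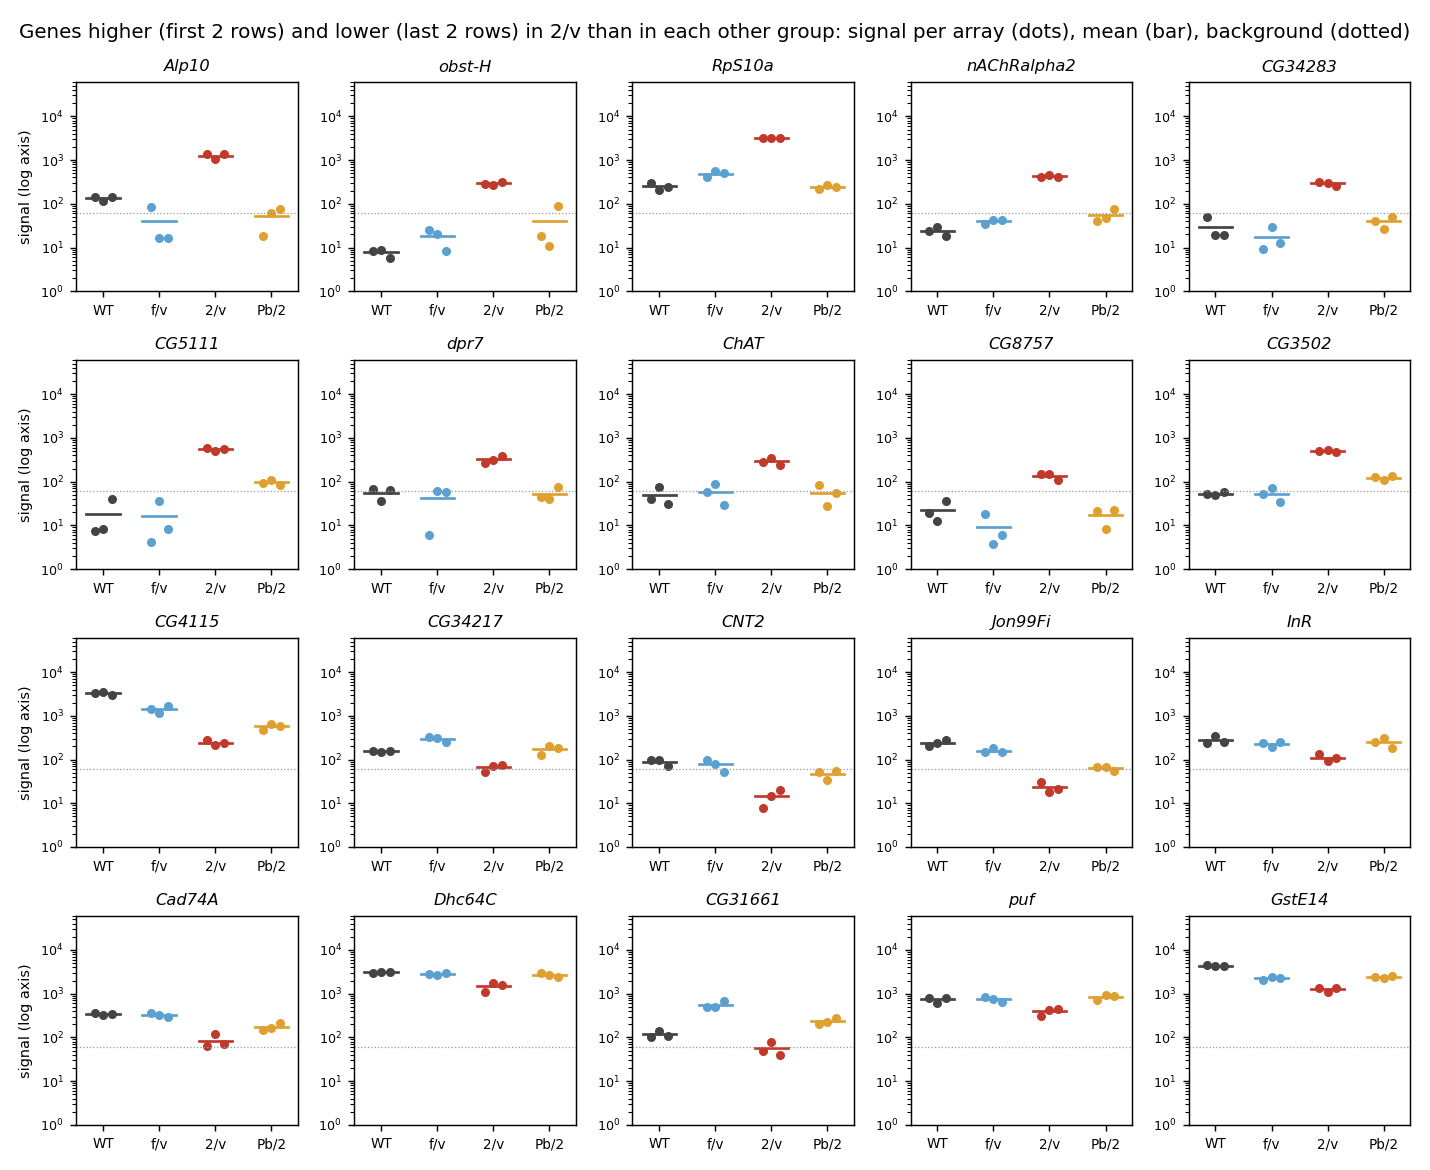
Normalized signals of 10 genes called higher and 10 called lower in 2/v than in each other group, on a log axis. These genes have the largest margins, a margin being the smallest of a gene's differences from the other groups. Each array has 1 dot, with a bar at the group mean and a dotted line at background. The 2/v dots of RpS10a lie between 3182 and 3261 and all arrays of the other groups lie far below.

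Tested directly, 4 of the 15 largest falls were lower and 1 was higher in 2/v than in f/v, and 5 were lower than in Pb/2, beside 13.6% of all genes lower and 13.8% higher against f/v and 9.28% lower against Pb/2. These genes were chosen for low signals in the same 2/v arrays, which favours lower calls. CG42565 read 7915, 8577 and 8183 in wild type and 332, 257 and 402 in 2/v, and its f/v mean of 43.8 was below that of 2/v (2/v at least 5.24-fold higher). CG4210 was below background in all 2/v arrays, at least 26.3-fold lower than in wild type (1697, 1605 and 1581), and it was below background in f/v as well (mean 17.5), whereas Pb/2 had a mean of 927. CG18545 followed the same order, with a mean of 1918 for wild type, 89.3 for f/v, 106 for 2/v and 759 for Pb/2. CG15571 and CG13084 lay below background in 2/v, were at least 10.9-fold and 11.2-fold lower than in f/v, and were not called against Pb/2. The neuropeptide precursor gene Nplp3 fell by 4.60 ± 0.23 and was lower than in f/v (mean 390; difference -2.73).

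Eggshell genes were among the strongest falls against both wild type and the fertile mutant. Of 19 tested chorion and vitelline membrane genes, 4 were higher and 10 lower (21.1% and 52.6%, beside 24.2% and 22.4% of all genes). Their median of -0.30 stayed negative under all 4 scalings, but with the array median subtracted it was -0.11 and the counts were 7 higher and 8 lower. Against f/v, 12 of the 19 were lower in 2/v, as were 13.6% of all genes. The chorion protein gene Cp16 read 2844, 2507 and 2425 in wild type and 157, 117 and 188 in 2/v (-3.96 ± 0.14), with means of 3637 in f/v and 189 in Pb/2. Of the other genes of its chorion cluster, Cp19 fell by 3.79 ± 0.09 from 5717, 6112 and 5907 to 450, 404 and 382, and Cp18 fell by 3.19 ± 0.15. Femcoat, an eggshell protein gene, read 1179, 1126 and 1064 against 33.9, 82.8 and 59.2.

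Cp15, which belongs to the same cluster, was higher. It was singled out after its values were seen, and it read 316, 299 and 224 in wild type and 1770, 1799 and 2121 in 2/v (2.70 ± 0.17), below the f/v mean of 11009 and the Pb/2 mean of 3883. Of the 4 yolk protein and receptor genes, Yp1 was called higher (0.31 ± 0.09), a call lost with the hybridization control scaling and without wild type replicate 2 (adjusted p = 0.053), and the others were not called.

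Genes of the early germline were called about as often as all genes, with a few large exceptions. Of 24 tested germline stem cell and cyst genes, 5 were higher and 7 lower (20.8% and 29.2%, beside 24.2% and 22.4% of all genes). Their median was -0.10, and 0.15 with the array median subtracted. tut, a translational regulator known from its work with Bam in the testis, read 1237, 1441 and 1249 in wild type and 6235, 5108 and 5689 in 2/v (2.10 ± 0.10), and was also higher than in f/v and Pb/2. The differentiation factor gene bam, which lets stem cell daughters form cysts, fell by 0.55, from 1013 to 1155 in wild type to 725 to 742 in 2/v, otu fell by 0.57 (a call lost with the array median subtracted, -0.23, adjusted p = 0.24) and vas, the germline helicase, by 0.48. hts, which encodes the adducin-like fusome protein, gave 0.98 ± 0.09 in its brightest probe set but -1.07 (adjusted p = 0.00025) in another, so that its probe sets disagree in direction.

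Of 25 oocyte RNA localization and axis genes, 5 were higher and 7 lower (20.0% and 28.0%, beside 24.2% and 22.4% of all genes). Their median was -0.16, and 0.18 with the array median subtracted. wbl, an endoplasmic reticulum protein that follicle cells need to set the dorsoventral axis, fell by 1.85 ± 0.10, from 1457, 1496 and 1276 to 429, 334 and 378, and was lower than in each other group (adjusted p = 0.0067). tud, a germ plasm scaffold, fell by 1.06 ± 0.25 and exu, which helps to localize bicoid RNA, by 0.86 ± 0.11. Another exu probe set gave -0.36 (adjusted p = 0.22). The RNA cargo adaptor gene egl was higher by 0.57, with 2461 to 3335 in wild type and 4350 to 4506 in 2/v, a call lost with the hybridization control scaling (0.028).

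In the piRNA pathway, which silences transposons in the germline and in follicle cells, 8 of 32 tested genes were higher and 10 lower. These are 25.0% and 31.3%, beside 24.2% and 22.4% of all genes. Their median was -0.07, and 0.15 with the array median subtracted. rhi, the HP1-like protein Rhino that marks dual-strand piRNA clusters, read 1030, 1025 and 1085 in wild type and 3621, 3756 and 3536 in 2/v. The difference was 1.78 ± 0.07 (adjusted p = 4.4e-08), and 2/v was also above f/v (mean 1639, by 1.14) and Pb/2 (mean 2195, by 0.73), with no overlap between 2/v and any group. The Rhino partner Moonshiner (moon) was called higher by 0.67, a call lost with the hybridization control scaling (0.070), and the partner Deadlock (del) lower by 0.82 ± 0.20. SoYb, a Tudor domain protein of the pathway, fell by 1.38 ± 0.14, from 1576, 1657 and 1304 to 500, 669 and 551.

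Of 28 tested meiotic recombination genes, 13 were called higher and 4 lower, an excess that depended on the scaling (46.4% and 14.3%, beside 24.2% and 22.4% of all genes). The counts were 8 and 6 as deposited, 13 and 3 with the array median subtracted, and 1 and 13 with the hybridization control scaling. Their median of 0.19 was positive under 3 scalings and -0.44 with the hybridization control scaling. c(2)M, a protein of the synaptonemal complex, read 608, 670 and 999 in wild type and 2469, 2514 and 2185 in 2/v (1.66 ± 0.20), with means of 1771 in f/v and 2171 in Pb/2. The crossover gene vilya was also called higher (1.03 ± 0.33), a call that was lost without 2/v replicate 1 or 2 or wild type replicate 2 (adjusted p of 0.064 to 0.10), as deposited (adjusted p = 0.094) and with the hybridization control scaling (adjusted p = 0.47). cona, another synaptonemal complex protein, went the other way, from 2861, 2301 and 2458 to 890, 966 and 1006 (-1.39 ± 0.11).

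Among 38 DNA replication and cell cycle genes, 5 were higher and 9 lower (13.2% and 23.7%, beside 24.2% and 22.4% of all genes). Their median was -0.10, and 0.15 with the array median subtracted. Cdc7, the kinase that fires replication origins, read 4727, 4888 and 4503 in wild type, 1842, 1904 and 1816 in 2/v, a mean of 4513 in f/v and 1691 in Pb/2. It fell by 1.34 ± 0.06 against wild type and was lower than in f/v by 1.28, while against Pb/2 the difference was 0.13 (adjusted p = 0.14). chif, the partner of Cdc7 that is needed for amplification of the chorion genes, fell by 0.86 ± 0.18 in one probe set and by 0.08 (adjusted p = 0.77) in another. Of 30 DNA damage and repair genes, 8 were higher and 11 lower, with the mismatch repair gene Msh6 at -1.68 ± 0.13 and the Fanconi ubiquitin ligase gene Fancl at -1.49 ± 0.17.

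Of 21 tested cell death genes, 5 were higher and 6 lower (23.8% and 28.6%, beside 24.2% and 22.4% of all genes). The caspase gene Damm read 376, 266 and 305 in wild type and 56.9, 78.9 and 91.2 in 2/v (-1.86 ± 0.17), and another caspase, Strica, read 936, 872 and 1153 against 2068, 1874 and 1980 (1.00 ± 0.12, and 0.35 with adjusted p = 0.11 under the hybridization control scaling). The effector caspase Dcp-1, which acts in dying egg chambers, was not called (0.21, adjusted p = 0.055). Bruce, an inhibitor of apoptosis family gene, fell by 0.78 ± 0.14. The median of the list was 0.14, and -0.43 with the hybridization control scaling.

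**Figure D5:**
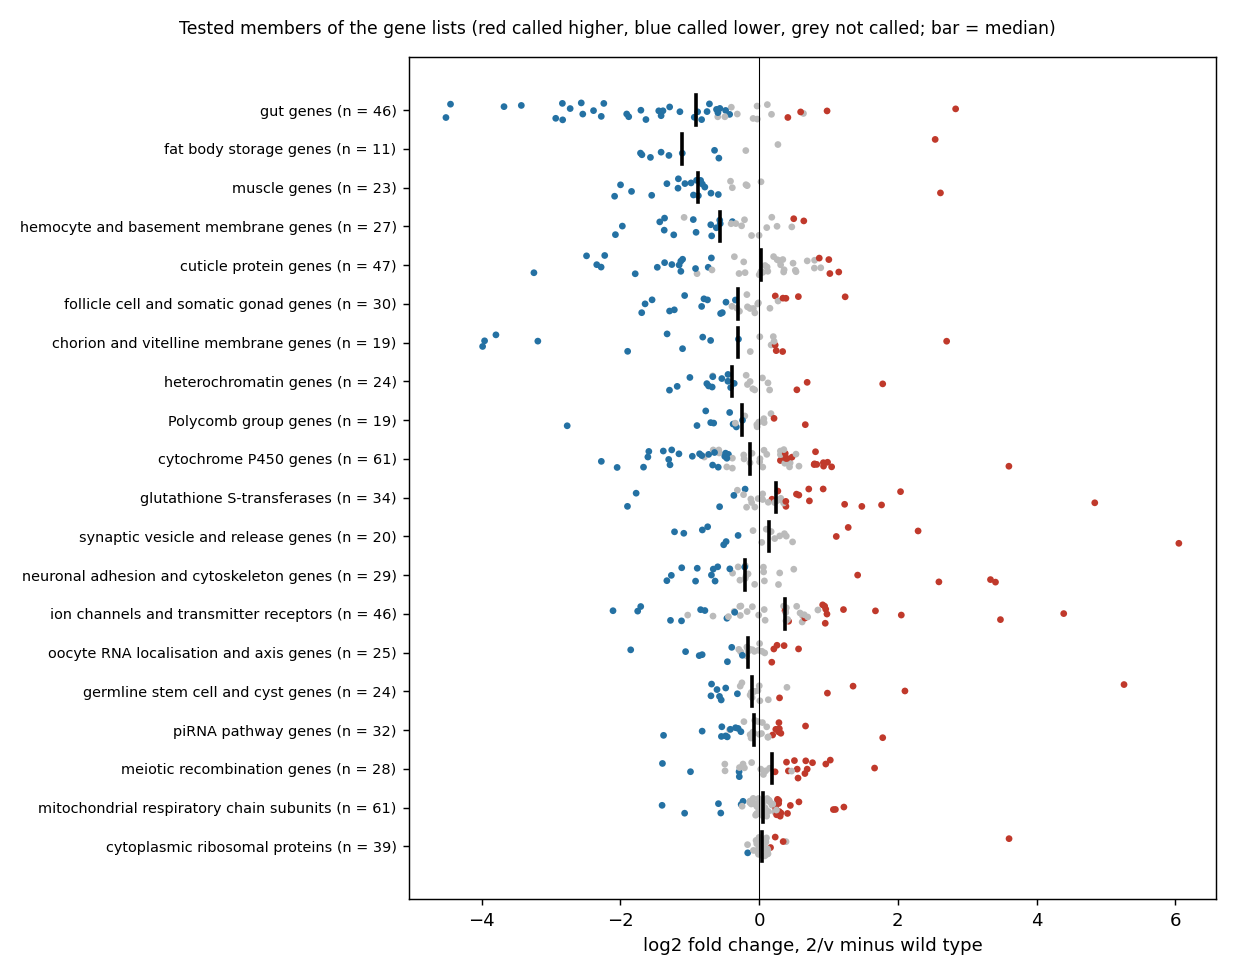
Each dot is a tested member of 1 of 20 gene lists, placed by its log2 difference, 2/v minus wild type, with called higher genes in red, called lower genes in blue and others in grey, and a bar at the list median. Gut, fat body and muscle genes have medians of -0.91, -1.11 and -0.88, while ribosomal proteins crowd at a median of 0.05 apart from RpS10a at 3.60.

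Several transcription factors of the follicle cells were lower in 2/v. Of 30 tested follicle cell and somatic gonad genes, 5 were higher and 13 lower (16.7% and 43.3%, beside 24.2% and 22.4% of all genes). The median of -0.30 was negative under all 4 scalings. mirr, which patterns the follicle cells along the dorsoventral axis, read 1706, 1736 and 1555 in wild type and 473, 597 and 623 in 2/v (-1.54 ± 0.10), and was lower than in each other group. ct, a homeobox gene of proliferating follicle cells, fell by 1.69 ± 0.29 from 794, 939 and 842 to 167, 225 and 429, and cas, a zinc finger gene of polar and stalk cells, by 1.64 ± 0.19. zfh1 fell by 1.29 ± 0.15 and eya by 0.48, the latter a call lost with the array median subtracted (-0.14, adjusted p = 0.51). The Maf factor gene tj, another marker of the somatic cells, was called higher by 0.39 (adjusted p = 0.048), which was lost in the values as deposited (0.048), with the array median subtracted and without 2/v replicate 1 or 3 or wild type replicate 2 or 3, and turned to -0.41 with the hybridization control scaling. Sox14, a target of ecdysone, rose by 1.24 ± 0.11 from 357, 381 and 330 to 784, 924 and 884, a level above f/v (mean 301) but not called against Pb/2.

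The signalling lists held changes in both directions, beside 24.2% of all genes called higher and 22.4% lower. In the BMP, Hedgehog and EGF receptor list, 9 of 33 genes were higher and 10 lower. The BMP ligand gene dpp read 369, 383 and 590 in wild type and 160, 182 and 194 in 2/v (-1.22 ± 0.20), while Dad, the inhibitory Smad that BMP signalling induces, read 242, 282 and 273 against 729, 864 and 1015 (1.64 ± 0.14). The Hedgehog pathway factor ci fell by 1.07 ± 0.14. Of 19 Notch and JAK/STAT genes, 2 were higher and 5 lower, including fng, the glycosyltransferase that modifies Notch (-0.67 ± 0.08). Of 26 ecdysone genes, 9 were higher and 10 lower, with sad, an enzyme of ecdysone synthesis, at 1.01 ± 0.10 (0.26 with adjusted p = 0.089 under the hybridization control scaling) and Eip93F, a late response gene, at -1.04 ± 0.09. Of 21 actin cytoskeleton genes, 5 were higher and 3 lower, and Arpc1, a subunit of the Arp2/3 complex, rose from 140, 177 and 138 to 1412, 1148 and 1214 (2.93 ± 0.11), below the f/v mean of 5884.

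In 4 lists of genes known from other tissues, most tested members were lower in 2/v, and follicle cells make basement membrane too. Of all tested genes, 22.4% were lower and 24.2% higher. Of 46 tested gut genes, 32 were lower and 4 higher (69.6% and 8.70%, median -0.91). Of 23 muscle genes, 17 were lower and 1 higher (73.9% and 4.35%, median -0.88). Of 27 hemocyte and basement membrane genes, 14 were lower and 2 higher (51.9% and 7.41%, median -0.56). Of 11 fat body storage genes, 8 were lower and 1 higher (72.7% and 9.09%, median -1.11). These 4 medians were negative under all 4 scalings. No member of any of them was at 0 in a wild type or 2/v array, but the same held in all 42 lists, so this does not set them apart. The summed signal of the gut genes was 47925 to 51242 in wild type and 30528 to 32730 in 2/v, that of the muscle genes 145248 to 148503 and 82709 to 88335, that of the hemocyte and basement membrane genes 121860 to 124338 and 83504 to 90258, and that of the fat body genes 15511 to 15797 and 8896 to 9841. All 4 sums were without overlap, and so were the arrays of 57% of all genes taken singly.

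The other mutants gave similar sums, with 32209 to 35506 in f/v and 29633 to 31622 in Pb/2 for gut genes and 86215 to 91572 and 89224 to 91341 for muscle genes. Against f/v, 10 gut genes were lower and 3 higher in 2/v, and against Pb/2 8 were lower and 10 higher. The trypsin gene alphaTry read 4436, 3883 and 4227 in wild type and 367, 375 and 379 in 2/v (-3.43 ± 0.19), and the f/v mean was 136. The titin-like muscle genes sls and bt fell by 2.00 ± 0.17 and 1.84 ± 0.14, and mspo, a muscle spondin, was the member called higher (2.61 ± 0.13, from 333 to 434 to 2340 to 2463). The phagocyte receptor NimC1 fell by 2.07 ± 0.14 and the basement membrane gene Ppn by 1.43 ± 0.07. In the fat body list, Fbp1, a receptor for storage proteins, fell by 1.71 ± 0.08, and fit, a secreted female-biased protein, was below background in wild type and at least 3.29-fold higher in 2/v. Of 33 testis genes on the array, only 12 passed the filter, with 2 higher and 3 lower. The part of these tissues in the falls listed above was not tested.

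Cuticle genes showed the same direction among the called members, with 4 of 47 higher and 16 lower. These are 8.51% and 34.0%, beside 24.2% and 22.4% of all genes. The median of the cuticle genes was 0.02, however, and turned negative under the 3 other scalings. Acp65Aa, an adult cuticle protein, read 2904, 3088 and 3031 in wild type and 626, 591 and 529 in 2/v, against an f/v mean of 180. Of 52 odorant binding and chemosensory genes, 7 were higher and 9 lower. The odorant binding protein gene Obp57a fell by 2.75 ± 0.20, and the ionotropic receptor gene Ir75a, below background in wild type, was at least 4.17-fold higher in 2/v (246 to 265) with a Pb/2 mean of 435.

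Detoxification genes divided by family. Of 34 glutathione S-transferases, 14 were higher and 5 lower (41.2% and 14.7%, beside 24.2% and 22.4% of all genes). Their median was 0.24, and -0.30 with the hybridization control scaling. Of 61 cytochrome P450 genes, 14 were higher and 21 lower (23.0% and 34.4%), with a median of -0.13 that was negative under all 4 scalings. Besides GstD2, the epsilon class gene GstE7 rose from 239, 183 and 171 to 985, 876 and 724 (2.04 ± 0.14), below the f/v mean of 2848, and GstZ1 fell by 1.90 ± 0.21. Cyp6a17 was below background in wild type (41.2 to 57.9) and at least 12.3-fold higher in 2/v (697 to 891), with a Pb/2 mean of 749 and an f/v mean of 46.0, and Cyp6a23 moved from 2039, 2794 and 2564 to 465, 448 and 573 (-2.27 ± 0.17). Of 22 UDP-glycosyltransferases, 4 were higher and 9 lower.

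Immune and stress genes were mixed, beside 24.2% of all genes called higher and 22.4% lower. Of 32 antimicrobial peptide and recognition genes, 7 were higher and 8 lower. The antimicrobial peptide gene Def read 72.7, 86.9 and 15.4 in wild type and 797, 633 and 811 in 2/v (3.52 ± 0.40), and PGRP-SB1, a peptidoglycan amidase, read 234, 214 and 224 against 912, 668 and 839, higher than in each other group. PGRP-SC2, another amidase, fell by 2.52 ± 0.16. Of 17 heat shock and chaperone genes, 1 was higher and 9 lower. The higher one was TotC, a secreted stress protein of the Turandot family (2.08 ± 0.18), and Hsp68 fell by 1.11 ± 0.13. Their median of -0.25 became 0.17 with the array median subtracted.

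Calls in the lists of core cellular machinery depended on the scaling. Of 61 mitochondrial respiratory chain subunits 14 were higher and 6 lower, of 44 translation initiation factors 9 and 7, of 31 proteasome subunits 5 and 7, and of 13 glycolysis genes 4 and 1, beside 24.2% and 22.4% of all genes. With the array median subtracted the counts were 50 and 3, 30 and 2, 19 and 2, and 7 and 0, and with the hybridization control scaling 1 and 19, 0 and 18, 0 and 17, and 1 and 7. As deposited they were 30 and 4, 18 and 4, 11 and 5, and 4 and 2. ND-13B, a complex I subunit, read 17376, 16879 and 17279 in wild type and 7738, 8213 and 8525 in 2/v (-1.07 ± 0.07), with a Pb/2 mean of 17179. Pepck1, the gluconeogenic phosphoenolpyruvate carboxykinase, rose from 826, 926 and 758 to 3306, 3243 and 3134 (1.93 ± 0.13), against an f/v mean of 965. Of 15 fat and sterol transport genes 7 were higher and 2 lower (median 0.20, and -0.26 with the hybridization control scaling). The lipase gene Lip4 rose by 3.59 ± 0.17, from 107 to 190 in wild type to 2120, 1859 and 1785, and Elo68beta, of the fatty acid elongase family, read 270, 373 and 278 in wild type and lay below background in all 2/v arrays, at least 4.90-fold lower. In the list of insulin, TOR and fat metabolism genes 5 of 29 were higher and 8 lower, and Lsd-1, a perilipin of lipid droplets, rose by 1.14 ± 0.08.

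In 2 lists of chromatin regulators lower calls outnumbered higher ones, by a margin that depended on the scaling. Of 19 tested Polycomb group genes, 2 were higher and 9 lower (median -0.24), and of 24 heterochromatin genes 3 were higher and 12 lower (median -0.38), beside 24.2% and 22.4% of all genes. Both medians were negative under all 4 scalings, but with the array median subtracted the counts were 4 and 5, and 8 and 9. Caf1-55, a histone chaperone shared by Polycomb complex 2 and other complexes, read 9235, 10023 and 9536 in wild type and 1304, 1404 and 1486 in 2/v (-2.77 ± 0.08). Its f/v mean of 1445 was not called different from 2/v (-0.05, adjusted p = 0.68), whereas Pb/2 stood at 5735. Jarid2, a cofactor of the same complex, fell by 0.90 ± 0.14, and Psc, of Polycomb complex 1, by 0.70 ± 0.11. Su(var)2-10, a SUMO ligase, fell by 1.29 ± 0.18 from 4397, 6028 and 6304 to 2011, 2216 and 2520. The chromatin remodeller gene dom fell by 1.00 ± 0.16 in its brightest probe set and by 0.75 in a second, while another gave 0.14 (adjusted p = 0.42).

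Some strongly changed genes lay beside others that changed in the same direction, a description for which no test was made. Of 472 genes higher by 2-fold or more that could be placed in the gene order, 100 (21.2%) had a directly neighbouring tested gene that was also higher by 2-fold or more, against 910 of all 9061 placed genes with such a neighbour. For genes lower by 2-fold or more the counts were 149 of 498 (29.9%), against 945 of 9061. The longest run of falls was the trypsin cluster etaTry, thetaTry, alphaTry, epsilonTry and betaTry, and runs of 3 held the Jonah protease genes Jon65Aiv, Jon65Aiii and Jon65Aii and, separately, CG15571, CG15570 and Femcoat. The longest run of rises was Lip3, CG34309, CG9813 and CG8870, of which CG9813 read 113, 82.7 and 111 in wild type and 1079, 1381 and 1347 in 2/v. Lip3 lay below background in wild type, was at least 1.05-fold higher in 2/v and lost its call without 2/v replicate 1 or 3 or wild type replicate 1 or 3 (adjusted p of 0.054 to 0.099). The tetraspanin genes Tsp42Ej (1.85), Tsp42Ek (1.27) and Tsp42El (1.56), which lie side by side, rose together. Members of tandem families share sequence, so cross-hybridization between their probe sets was not tested. Of the 12 genes directly beside the 6 largest rises, 6 were called higher, 1 lower and 5 not, beside 24.2% of all genes higher and 22.4% lower. All 6 of the higher calls were lost with the hybridization control scaling, where ras, PIG-H, Cda5 and CG14694 turned negative, and those of PIG-H, Cda5 and CG14694 were also lost as deposited. CG42857 rose by 5.31 ± 0.14, and its neighbours Teh1, a relative of tipE, and CG9458 were called higher by 1.07 and 0.79. The neighbours of Rph were ras (0.22, adjusted p = 0.022), whose call was lost without 2/v replicate 1 or wild type replicate 1 or 2 (adjusted p of 0.060 to 0.079), and Tango5, which was not called.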

How the data were processed

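RNA from Drosophila ovaries was measured on 12 one-colour Affymetrix arrays, 3 in each of 4 genotypes. Per the labels' protocols, 50 ng of RNA was amplified by the SPIA method. The deposited values are intensities per probe set on a linear scale, made by the authors with GCOS, per the submitters' processing notes, with a version and settings not given in the sources used here. In every deposited array the mean after removal of the outer 2% at each end was 1500, so the arrays had been scaled to one target. Such scaling removes any difference in total RNA between genotypes.

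Of 18952 probe sets, 183 were controls and were left out. Through the platform annotation 13647 had 1 symbol (11982 genes), 402 had several and 4720 had none, and 13544 symbols were looked up through the gene number. Values were quantile-normalized as log2(signal + 16), so differences of dim genes are understated. Each gene took its single-symbol probe set of highest mean, and a gene was kept where 3 or more arrays placed it above their 40th percentile. All 12 arrays entered one limma fit (lmFit and eBayes, limma 3.58.1, R 4.3.3), with 8 residual degrees of freedom, two-sided tests and Benjamini-Hochberg adjustment over the 9109 genes. Adjusted p for other probe sets come from the same fit on all 12618 probe sets kept. The test against each group took the largest of the 3 p-values where the 3 signs were the same. "At least" folds set the bright group's mean against, in each dim array, the higher of the background and the probe set's own signal. That background comes from deposited control readings, whereas the signals are quantile-normalized. Sums, counts and figures used Python 3.11.15, pandas 2.3.3 and matplotlib 3.10.9.

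In 5 simulations of 2/v against wild type over 9109 genes with 200 changed, 48.4% of changes of 0.5 (log2) were recovered, 82.4% of 1, 95.2% of 2 and 99.2% of 3, and 4.35% of calls were false. The simulations drew independent normal noise for each gene on values already normalized, and left out the scaling between arrays. In the real arrays 4240 genes were called, so these rates check the fit and do not give the error rate of the real calls. Nothing in the labels says that replicates came from separate cultures of flies, so p-values measure the spread between these samples, and the number of arrays limits the precision. Replicate numbers did not pair the samples: deviations from the group means of same-numbered arrays correlated at -0.091 to 0.047 between 2/v and wild type, and at -0.15 to 0.099 over all 18 pairs.

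The members and lists were chosen with earlier results of these data known. Named genes are su(Hw), Rbp9, the 15 largest rises and falls without overlap and up to 4 called members of each list by size. Also named are the 10 nearest tested genes on each side of su(Hw) and those beside the 6 largest rises. To these come 10 genes higher and 10 lower against each group. They were ranked by the size of the smallest difference from the other groups, not by adjusted p. A further 20 genes, among them vas, otu, bam, eya, tj, para, repo, mod(mdg4), CTCF, sei, robo1, nAChRbeta3, Ca-alpha1D, Dcp-1, egl, Cp15, CG9813 and 3 Tsp42E genes, the marker genes osk and grk, the genes of the runs, and the genes named for disagreeing probe sets, were chosen after their values were seen. Alternatives tried were the scaling between arrays, the pseudocount, the filter, the mean of a gene's probe sets, the variance model, array weights, a replicate block, the threshold, the 6 arrays alone and leaving out each 2/v and wild type array. Genome coordinates were used only to put the genes in their order along each chromosome.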

Additional observations from a re-analysis of the deposited data

Results flagged for a closer look

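Probe sets that the annotation does not tie to a single gene were outside the gene comparison and were tested in the fit of all probe sets kept. Of 2237 tested probe sets with no symbol, 219 were higher and 297 lower in 2/v than in wild type, and of 303 with several symbols 82 were higher and 63 lower (limma, adjusted over all probe sets kept). Among the tested genes, 24.2% were higher and 22.4% lower, so probe sets with no symbol were called less often than genes. The largest rise was that of 1624833_a_at, which lay below background in wild type (34.2, 28.8 and 34.1) and read 1417, 1534 and 1514 in 2/v, a fitted log2 difference of 4.96. Probe set 1641245_a_at read 434, 480 and 503 in wild type and 7700, 7650 and 6813 in 2/v (3.92). The largest fall was that of 1624437_s_at, from 748, 794 and 684 to 26.1, 12.1 and 12.3, below background (-4.55), and 1625050_s_at fell by 4.52, from 4627, 4778 and 4058 to 176, 165 and 201. The 2/v and wild type arrays did not overlap in any of these 4 probe sets, which are unnamed here. The 4 were picked for large differences, and the arrays of 57% of all tested genes did not overlap either.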

How the results depend on the processing

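The scaling between arrays set the balance of calls. Against wild type, 2201 higher and 2039 lower genes became 3399 and 1348 with the array median subtracted, 410 and 5414 with the hybridization control scaling, and 476 and 502 at 2-fold or more. The call of su(Hw) kept its direction and passed the test under every alternative run, at -5.68 to -4.58, and at -5.27 to -4.98 with single arrays left out. Leaving out single arrays gave 1819 to 2073 higher and 1688 to 1857 lower genes against wild type, and 47 to 126 higher and 30 to 62 lower against each of the 3 other groups. The latter counts, 153 and 91, were 72 and 27 with the array median subtracted, 72 and 31 with no filter, 23 and 19 with the hybridization control scaling, 234 and 197 with trend and robust settings, 37 and 12 at an adjusted p below 0.01, and 26 and 4 at 2-fold or more. The lower count was 146 with array weights and 172 with the filter at the 60th percentile. With the replicate number as a block, which does not pair these samples, 1988 were higher and 1861 lower against wild type, and 57 and 23 against each group.

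Signs turned for the following genes. With the hybridization control scaling these were RpLP0-like -0.051, RpL24-like -0.028, fbp -0.13, tomb -0.21, cher -0.15, CG9631 -0.10, CG9616 -0.17, CG14841 -0.45, IFT54 -0.44, Dnaaf5 -0.64, HtrA2 -0.46, mRpL11 -0.25, CG8461 -0.20, ras -0.11, PIG-H -0.26, CR11023 -0.038, Cda5 -0.27, CG14694 -0.14, mod(mdg4) -0.17, tj -0.41 and Dcp-1 -0.27. In the values as deposited they were CG14841 -0.084, IFT54 -0.037, Dnaaf5 -0.17 and HtrA2 -9.5e-05. With the array median subtracted they were ATPsynE 0.25, Tango5 0.13, CG11164 0.10 and CTCF 0.020, and with array weights Tango5 0.0061. With the mean of probe sets they were hts -0.037 and, against each group, Dhc64C 0.060. With single arrays left out, CG14841 ran from -0.090 to 0.24, IFT54 from -0.12 to 0.44, Tango5 from -0.039 to 0.065, Os-C from -0.26 to 0.14, and para from -1.14 to 0.056. The cause of these turns was not tested. Of 246 genes followed, 41 lost a call or had its sign turned with the hybridization control scaling, 10 with the array median subtracted, 10 with the block and 10 with no filter.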
